A study of Mus musculus with 3 samples.

Results

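Serpins are a family of proteins that share one fold, in which an exposed reactive centre loop is offered to a protease as bait. When an inhibitory serpin is cleaved, it changes shape and holds the enzyme in a covalent complex, so each inhibitor molecule is used up by the protease it stops. Clade A serpins and several smaller clades are mostly secreted and act in blood clotting, complement and inflammation, while most clade B serpins stay inside cells, where they can protect them from their own granule and lysosomal proteases or from the granzymes of killer lymphocytes.

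The genes described here are those whose symbol in the array's probe annotation is Serpin followed by a clade letter, a number and at most 1 further letter. There were 39 of them among 17886 genes with a probe set of their own. They were read by 52 probe sets, and a gene with several is given by the one brightest on average. Expression was measured in dendritic cells (DCs) grown from the bone marrow of wild-type mice in 5 days of culture with the growth factor GM-CSF, then flow-sorted for surface PDL2 (a PD-1 ligand). One group was PDL2-positive (PDL2+) and untreated. Another was PDL2-negative (PDL2-) and received LPS (lipopolysaccharide, a cell wall component of Gram-negative bacteria) at 100 ng/ml. The last was PDL2- and untreated. The time in LPS, the mouse strain, and the number of mice or cultures behind each array are not given in the sources used here. With 1 array in each group there is no replicate check and no test, so differences are described by their size alone. Precision is limited by the number of arrays.

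Pdcd1lg2, which encodes PDL2, had log2 signals of 11.73 in PDL2+, 9.44 in LPS-treated and 8.40 in untreated PDL2- DCs, highest in the cells sorted as positive. All 10 DC markers listed were above the floor defined below on all 3 arrays, among them Flt3 and Zbtb46. By at least 2-fold, 6 of the 10, Pdcd1lg2 included, were higher in PDL2+ than in untreated PDL2- DCs and 1, Itgax, was lower, at 9.81 against 11.48. Markers of other cells moved between the arrays. All 8 macrophage markers above the floor, of 9 measured, were lower by at least 2-fold in PDL2+ DCs than in each PDL2- group, and their summed linear signal was 3107 in PDL2+, 44152 in LPS-treated and 59099 in untreated PDL2- DCs. The same sum over 6 monocyte markers was 2984, 21580 and 15328, and that over 12 neutrophil and granulocyte precursor markers was 19824, 18579 and 29390. Of these 12, 0 were higher and 1 lower by at least 2-fold in PDL2+ than in untreated PDL2- DCs (median log2 difference -0.02). The lower one was Mmp8, a bright gene, at 8.56 against 13.30. Against LPS-treated DCs 6 were higher and 2 lower in PDL2+ DCs (median 0.97), so the sums do not show how most of these markers differed. Over the 10 mast cell and basophil markers measured, the sum was 1631 in PDL2+, 834 in LPS-treated and 719 in untreated PDL2- DCs. Of the 5 above the floor, only Kit was higher by at least 2-fold in PDL2+ than in untreated PDL2- DCs, at 9.78 against 6.26. In that comparison 0 of 8 megakaryocyte and platelet markers were higher and 2 lower, and 0 of 2 lymphocyte markers were higher and 1 lower. In sorted populations measured in bulk, fewer cells of a type and less RNA per cell cannot be told apart.

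Signals were judged against a floor of 5.58 on the log2 scale, which is the median over all normalized probe set values. Of the 39 serpins, 13 lay above it on at least 1 array and 26 lay below it on all 3. Of all 17886 genes, 11230 lay above it on at least 1 array, a larger share than among the serpins or within clade B. Clade B supplied 9 of the 13, out of 18 measured. Clade A supplied 1 of 13, clade F both of its 2 members and clade G its single member. Serpinb1b, with a highest signal of 6.27, was the member closest above the floor, and Serpind1, with a highest signal of 5.34, was the closest below it. The members below the floor were Serpina1b, Serpina1c, Serpina1f, Serpina3a, Serpina3i, Serpina3n, Serpina5, Serpina6, Serpina7, Serpina9, Serpina10, Serpina12, Serpinb3a, Serpinb5, Serpinb6c, Serpinb7, Serpinb9c, Serpinb9d, Serpinb9g, Serpinb11, Serpinb12, Serpinc1, Serpind1, Serpinh1, Serpini1 and Serpini2. For 15 of the 39 genes (38.5%) the deposited value was identical on all 3 arrays, against 16.4% of all genes, and each of these 15 was below the floor.

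**Figure D1:**
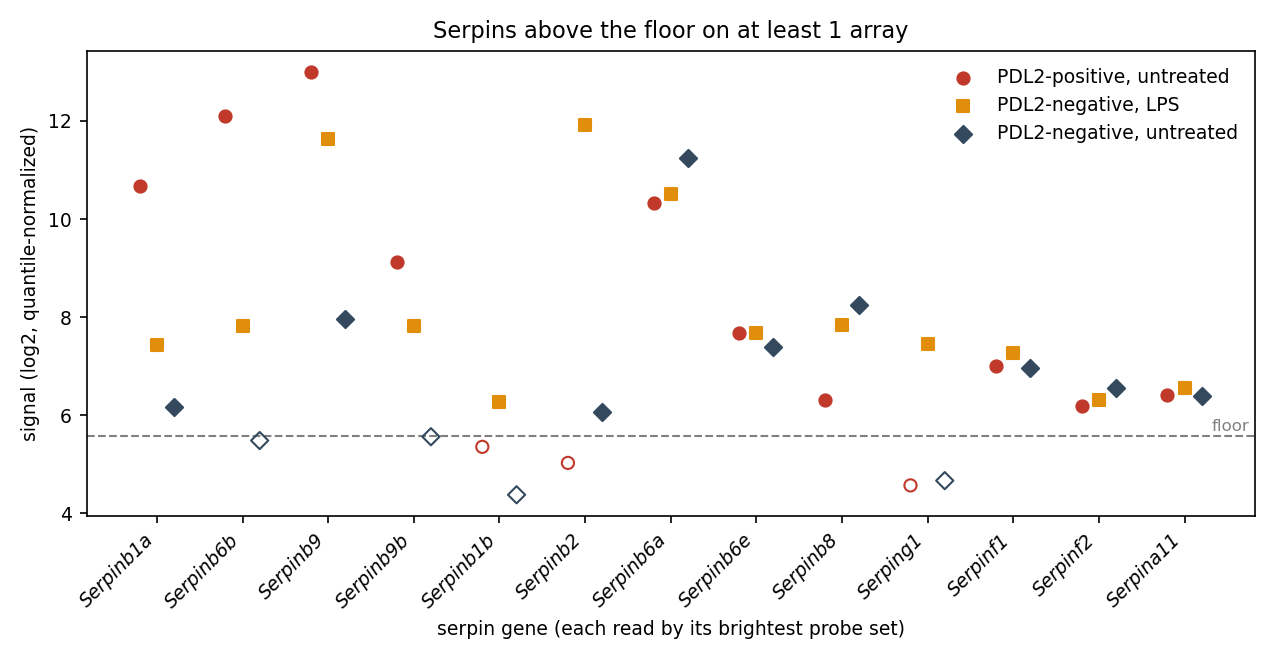
Signals (log2, quantile-normalized) of the 13 serpins above the floor on at least 1 array, with 1 point per array and no error bar, since each group had 1 array. Hollow points lie at or below the floor of 5.58 (dashed line); Serpinb1a, Serpinb6b, Serpinb9 and Serpinb9b are highest in PDL2+ DCs, and Serpinb2 and Serping1 are highest after LPS.

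Of the 4 serpins at least 2-fold higher in PDL2+ than in untreated PDL2- DCs, 3 inhibit granzymes, the killer proteases of cytotoxic lymphocytes. Serpinb9, an intracellular inhibitor of granzyme B that protects DCs and cytotoxic lymphocytes from the enzyme, had log2 signals of 13.001 in PDL2+, 11.64 in LPS-treated and 7.96 in untreated PDL2- DCs. It was 33.0-fold higher in PDL2+ than in untreated PDL2- DCs and 12.8-fold higher after LPS. Its second probe set had signals of 10.77, 7.74 and 4.77 in the same order of groups, and gave log2 differences from untreated PDL2- DCs of at least 5.19 for PDL2+ and at least 2.17 for LPS-treated DCs, against 5.04 and 3.68 by the first. Both probe sets ordered the 3 arrays alike, though the difference between PDL2+ and LPS-treated DCs was 1.36 by the first and 3.02 by the second.

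Serpinb6b, whose product inhibits mouse granzyme A, had log2 signals of 12.11 in PDL2+, 7.82 in LPS-treated and 5.48 in untreated PDL2- DCs. The untreated value lay below the floor, so the gene was at least 92.5-fold higher in PDL2+ DCs and at least 4.74-fold higher after LPS. PDL2+ DCs exceeded LPS-treated DCs by 19.5-fold, with both arrays above the floor. The gene had 1 probe set, so no second reading was at hand.

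Serpinb9b, a close relative of Serpinb9 whose product inhibits granzyme M, had log2 signals of 9.13 in PDL2+, 7.82 in LPS-treated and 5.56 in untreated PDL2- DCs. It was at least 11.8-fold higher in PDL2+ and at least 4.74-fold higher in LPS-treated than in untreated PDL2- DCs. The bound after LPS equals that of Serpinb6b because both genes held the same deposited value on that array, one shared by 15 probe sets; 50.3% of the probe sets on that array shared their deposited value with another. With the floor raised to the 75th percentile of all values, 7.80, the LPS differences of Serpinb6b and Serpinb9b were both 0.019 on the log2 scale.

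The genes for the granzymes themselves were low in these cells. Gzma had signals of 4.37, 4.50 and 4.52 and Gzmb of 4.66, 4.94 and 4.66 in PDL2+, LPS-treated and untreated PDL2- DCs, all below the floor. Gzmm lay above the floor and differed little, at 6.31, 6.43 and 6.27. Gzma and Gzmm were added as targets after their values were seen. Of 20 measured genes for granzymes and for neutrophil and mast cell serine proteases, 6 were above the floor, and Gzmm was the only granzyme among them.

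The promoters of Serpinb6b, Serpinb9 and Serpinb9b are shown because these genes were all higher in PDL2+ DCs, and that of Serpinb2 because its pattern, described below with its values, differed. Each runs from 250 bases before the gene start to 50 bases after it, 5′ to 3′ on the gene's strand, from RefSeq (GRCm38.p6). Capitals mark matches, on either strand, to any of 6 motifs: the interferon-stimulated response element (GAAA, any 2 bases, then GAAA), the composite element of ETS and interferon regulatory factors (GGAA, any 2 bases, then GAAA), the AP-1 site TGANTCA, the cyclic AMP response element TGACGTCA, an NF-kB site (GGG, any 2 bases, then TTTCC) and the TATA box TATAAA. Serpinb2 has 2 overlapping entries, of which the first is printed.
Serpinb6b (chr13:32965011-32965310, plus strand): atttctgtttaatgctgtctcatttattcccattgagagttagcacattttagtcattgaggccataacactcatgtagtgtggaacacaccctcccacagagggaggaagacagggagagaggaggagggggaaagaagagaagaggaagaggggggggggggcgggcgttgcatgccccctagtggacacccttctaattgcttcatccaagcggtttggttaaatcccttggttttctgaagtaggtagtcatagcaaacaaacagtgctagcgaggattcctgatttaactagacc
Serpinb9 (chr13:33004291-33004590, plus strand): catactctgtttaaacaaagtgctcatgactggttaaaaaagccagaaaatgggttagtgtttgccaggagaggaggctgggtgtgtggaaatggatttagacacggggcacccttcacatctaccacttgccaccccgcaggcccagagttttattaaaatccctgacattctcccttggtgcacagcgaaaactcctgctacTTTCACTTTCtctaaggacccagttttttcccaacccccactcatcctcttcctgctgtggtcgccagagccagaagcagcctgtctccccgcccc
Serpinb9b (chr13:33027164-33027463, plus strand): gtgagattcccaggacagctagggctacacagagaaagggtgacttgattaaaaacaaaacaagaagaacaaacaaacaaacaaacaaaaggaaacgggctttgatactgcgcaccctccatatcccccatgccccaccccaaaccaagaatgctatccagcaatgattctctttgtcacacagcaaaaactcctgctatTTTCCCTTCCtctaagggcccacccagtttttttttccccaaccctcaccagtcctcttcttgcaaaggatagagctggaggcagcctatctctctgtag
Serpinb2 (chr1:107511173-107511472, plus strand): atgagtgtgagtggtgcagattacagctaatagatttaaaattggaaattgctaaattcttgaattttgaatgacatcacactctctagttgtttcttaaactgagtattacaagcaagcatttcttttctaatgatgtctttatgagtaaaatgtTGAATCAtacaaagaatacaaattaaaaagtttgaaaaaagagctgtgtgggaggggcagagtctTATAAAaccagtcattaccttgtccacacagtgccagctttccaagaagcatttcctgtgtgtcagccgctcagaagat

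The Serpinb9 promoter matched the interferon-stimulated response element 46 bases before the gene start, and the Serpinb9b promoter matched the ETS composite element 50 bases before it. Both matches read on the opposite strand. In a global alignment of the 2 promoters, in which 186 of 322 columns (57.8%) were identical, the 2 matches occupied the same 10 columns and shared 8 bases. Serpinb6b against Serpinb9 had 42.5% identical columns, and every pair that included Serpinb2 had between 43.1% and 45.7%. No match to the 6 motifs was found in the Serpinb6b window. Among 32851 RefSeq promoters of this length, 3.44% held the interferon-stimulated response element and 2.72% the ETS composite element. Of the 11 members above the floor with a promoter entry, 2 held the first (Serpinb9 and Serpinb6a) and 1 the second; Serpinb1a and Serping1 had no entry. These matches are a description of letters, not of bound factors.

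Serpinb1a encodes an inhibitor of neutrophil elastase, cathepsin G and proteinase 3 that is abundant in myeloid cells. Its log2 signals were 10.67 in PDL2+, 7.43 in LPS-treated and 6.16 in untreated PDL2- DCs, which made it 22.7-fold higher in PDL2+ and 2.42-fold higher in LPS-treated than in untreated PDL2- DCs. A second probe set, whose name marks it as one that can match related transcripts, had signals of 7.80, 4.72 and 4.61. Both readings put PDL2+ DCs highest, by at least 2.22 on the log2 scale in the second, but the second was below the floor on both PDL2- arrays and does not show the LPS difference. The mean of the 2 probe sets gave a log2 difference of 0.50 after LPS. Serpinb1b, a close relative, had signals of 5.36, 6.27 and 4.38 and was above the floor on the LPS array alone.

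The genes of the proteases that Serpinb1a inhibits were not higher in PDL2+ than in untreated PDL2- DCs. Elane, the neutrophil elastase gene, had log2 signals of 7.68 in PDL2+, 6.60 in LPS-treated and 7.84 in untreated PDL2- DCs. Prtn3, for proteinase 3, had 6.76, 5.26 and 7.30, and Ctsg, for cathepsin G, had 7.55, 6.96 and 8.12. All 3 were lower by at least 2-fold after LPS and under 2-fold different between PDL2+ and untreated PDL2- DCs. They also mark granulocyte precursors, of whose 12 markers 8 were lower and 1 was higher after LPS; the part of such cells in these values was not tested.

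The 5 members Serpinb1a, Serpinb6b, Serpinb9, Serpinb9b and Serpinb1b lie close together in gene order on chromosome 13 (RefSeq, GRCm38.p6). In the annotation 16 protein-coding serpins of clade B follow one another there with no other protein-coding gene between them; 11 of the 16 were measured and 7 passed the floor on 1 array or more. Serpinb1a, Serpinb6b, Serpinb9, Serpinb9b and Serpinb1b take places 1, 3, 4, 5 and 6, and the gene at place 2, Serpinb1c, was not analysed here. The next measured genes, Serpinb9c, Serpinb9d and Serpinb9g, were below the floor on all 3 arrays. At the far end, Serpinb6e at place 14 and Serpinb6a at place 16 were above the floor on all 3 arrays, with Serpinb6c between them below it. The flanking genes, picked by position, read differently. Wrnip1 had signals of 7.84 in PDL2+, 7.20 in LPS-treated and 7.73 in untreated PDL2- DCs, all within 2-fold, and Nqo2 had 5.71, 7.23 and 8.57, lowest in PDL2+ DCs.

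**Figure D2:**
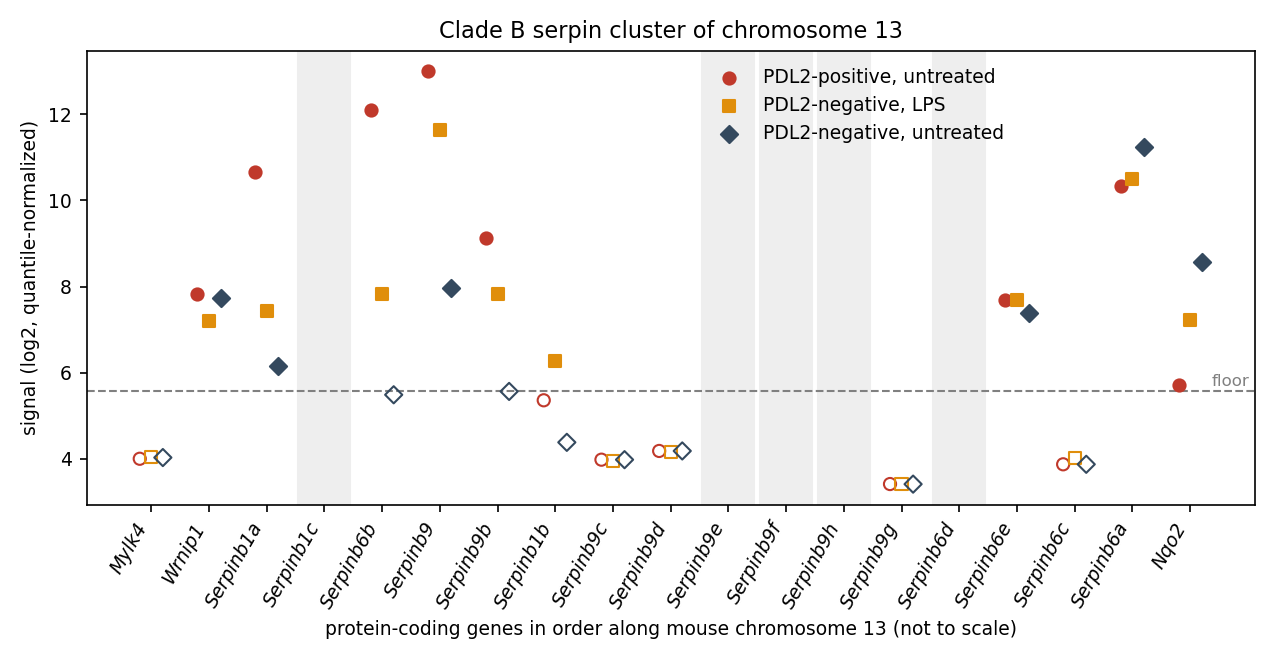
Signals (log2, quantile-normalized) of protein-coding genes in their order along chromosome 13, with equal spacing and 1 point per array. Hollow points lie at or below the floor (dashed line) and grey columns are genes not analysed here; the measured genes from Serpinb1a to Serpinb9b are highest in PDL2+ DCs, while Serpinb6a at the other end is highest in untreated PDL2- DCs.

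Serpinb6a and Serpinb6e sit in the same cluster and differed by less than 2-fold in all 3 comparisons. Serpinb6a, an intracellular inhibitor of cathepsin G and other trypsin-like and chymotrypsin-like enzymes, had log2 signals of 10.34 in PDL2+, 10.50 in LPS-treated and 11.25 in untreated PDL2- DCs, with log2 differences from untreated PDL2- DCs of -0.91 in PDL2+ and -0.74 in LPS-treated DCs. Serpinb6e had 7.68, 7.68 and 7.39. Its single probe set carries a suffix for sequences that may cross-hybridize, so its signal may include related serpins.

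Serpinb2 had the largest difference after LPS among the 13 members above the floor. It encodes plasminogen activator inhibitor type 2, an inhibitor of urokinase that mostly stays inside the cell and is known as a strongly induced gene of stimulated macrophages. Its log2 signals were 5.03 in PDL2+, 11.92 in LPS-treated and 6.08 in untreated PDL2- DCs. It was 57.2-fold higher after LPS, and at least 80.8-fold lower in PDL2+ than in LPS-treated DCs. Its printed promoter holds an AP-1 match 94 bases and a TATA box 29 bases before the gene start, motifs found in 7.81% and 13.6% of all promoters. Of the 11 members with a promoter entry, Serpinb2 and Serpinb8 matched the AP-1 site and Serpinb2 alone the TATA box, and 0 matched the NF-kB site (1.63% of all promoters) or the cyclic AMP response element (1.79%).

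Plau, the urokinase gene, was below the floor on all 3 arrays, at 4.64, 4.67 and 4.69 in PDL2+, LPS-treated and untreated PDL2- DCs. Plat, which encodes tissue plasminogen activator, the other enzyme that Serpinb2 can inhibit, had signals of 5.86, 9.88 and 4.91 and was at least 19.7-fold higher after LPS. Among 6 genes of plasminogen activation above the floor, 1 was higher and 1 lower after LPS (median -0.48), 0 were higher and 2 lower in PDL2+ against untreated PDL2- DCs (median -0.12), and 1 was higher and 3 lower in PDL2+ against LPS-treated DCs (median -1.79). Plaur, the urokinase receptor gene, was 29.9-fold lower in PDL2+ than in untreated PDL2- DCs and Lrp1, an endocytic receptor that clears serpin complexes, was 16.3-fold lower. The macrophage markers were lower on the PDL2+ array too, as given above, and their part in these differences was not tested.

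Serpinb8, the other member above the floor in the clade B cluster of chromosome 1, followed a different course. Its product inhibits the proprotein convertase furin in human cells. Signals were 6.30 in PDL2+, 7.84 in LPS-treated and 8.26 in untreated PDL2- DCs by the first probe set and 4.74, 5.52 and 6.996 by the second. The second lay below the floor on the PDL2+ and LPS arrays, so it gives no order between them. The first was 3.88-fold lower in PDL2+ than in untreated PDL2- DCs, and the second gave a log2 difference of -1.42 or further below. After LPS the difference was -0.42 by the first probe set and -1.42 or further below by the second, so the readings disagreed on a 2-fold change. Furin, named as a target after its values were seen, had signals of 8.66, 9.68 and 9.02. In the gene order of chromosome 1, 12 serpins follow one another, of which 7 were measured and Serpinb2 and Serpinb8 were above the floor.

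**Figure D3:**
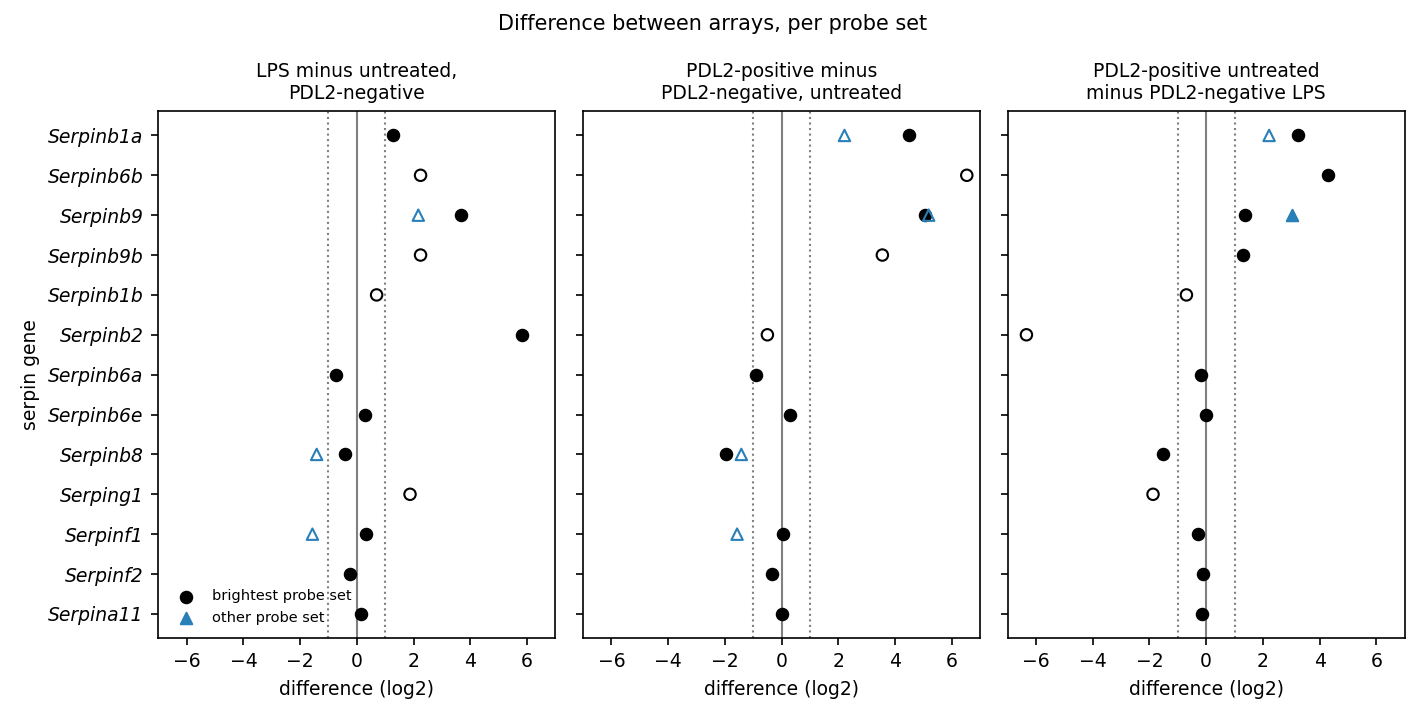
Log2 differences between pairs of arrays for the 13 serpins, in 3 panels, with a circle for the brightest probe set and a triangle for any other probe set past the floor on either of the arrays compared. Hollow symbols are lower bounds in size because 1 array lay at the floor, dotted lines mark 2-fold; Serpinb9 and Serpinb1a are to the right of 2-fold by both of their probe sets in the middle panel, and the probe sets of Serpinf1 disagree.

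Among the secreted serpins, Serping1 stood out after LPS. It encodes C1 inhibitor, which blocks the complement proteases C1r and C1s and the contact enzymes of clotting, and it is known as an interferon-induced gene. Its log2 signals were 4.57 in PDL2+, 7.45 in LPS-treated and 4.67 in untreated PDL2- DCs. It was at least 3.67-fold higher after LPS and at least 3.67-fold lower in PDL2+ than in LPS-treated DCs, since the other 2 arrays were at the floor. C1ra, a gene for its target C1r, had signals of 5.02, 8.30 and 7.23, and was 2.10-fold higher after LPS and at least 3.15-fold lower in PDL2+ than in untreated PDL2- DCs. C1s1 was below the floor on all 3 arrays, at 3.89, 3.87 and 3.88. Of the 4 complement proteases measured, 2 were above the floor, and the median differences of these 2 were 0.73 after LPS, -0.78 in PDL2+ against untreated PDL2- DCs and -1.50 in PDL2+ against LPS-treated DCs.

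Clade F gave no firm reading. Serpinf1 encodes pigment epithelium-derived factor, a secreted serpin with no protease inhibition. Its brighter probe set had signals of 7.0 in PDL2+, 7.28 in LPS-treated and 6.96 in untreated PDL2- DCs, while the other had 4.34, 5.09 and 7.14. The first was flat and the second gave log2 differences of -1.57 or further below in both PDL2+ and LPS-treated against untreated PDL2- DCs, so the direction depends on the probe set. Serpinf2, which encodes the plasmin inhibitor alpha-2-antiplasmin, had signals of 6.20, 6.32 and 6.55. Serpina11, a secreted serpin of little known function, had 6.41, 6.55 and 6.39; its deposited values were 6.43, 6.45 and 6.45, which differ by less than the normalized ones.

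By the 2-fold rule, 6 serpins were higher and 0 lower after LPS, of 13 above the floor in that comparison and 39 in all. The 6 were Serpinb1a, Serpinb2, Serpinb6b, Serpinb9, Serpinb9b and Serping1. With the floor at the 75th percentile, 2 serpins, Serpinb2 and Serpinb9, were higher after LPS and the median was 0.019. Among all 11000 genes that entered, 9.17% were higher and 13.8% lower. The median log2 difference was 0.70 over the 13 serpins and 0.02 over all genes. At 1.5-fold 7 serpins were higher and 1 was lower, against 15.1% and 24.6% of all genes, and at 3-fold 5 were higher and 0 lower, against 5.28% and 5.87%. Serpinb1b, Serpinb6b, Serpinb9b and Serping1 were below the floor without LPS and entered this comparison through the LPS array, so that these counts are a description and carry no weight as evidence.

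Between PDL2+ and untreated PDL2- DCs, 4 serpins were higher and 1 lower, of 11 above the floor in that comparison. The higher members were Serpinb1a, Serpinb6b, Serpinb9 and Serpinb9b, and the lower one was Serpinb8. Of 10926 genes, 10.1% were higher and 13% lower, so the share of lower serpins (9.09%) was near that of all genes. The median log2 difference was 0.04 over the 11 serpins and 0.01 over all genes. At 1.5-fold 4 serpins were higher and 2 lower, against 17.7% and 20.4% of all genes, and at 3-fold 4 were higher and 1 lower, against 5.37% and 7.35%. Serpinb6b and Serpinb9b entered through the PDL2+ array, and Serpinb2 through the untreated PDL2- array, so these counts too carry no weight as evidence.

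Between PDL2+ untreated and LPS-treated PDL2- DCs, 4 serpins were higher and 3 lower, of 13 above the floor. The same 4 genes were higher, by 19.5-fold for Serpinb6b, 9.41-fold for Serpinb1a, 2.57-fold for Serpinb9 and 2.48-fold for Serpinb9b, and Serpinb2, Serpinb8 and Serping1 were lower, with Serpinb8 2.90-fold lower. Of 11042 genes, 15.6% were higher and 12.6% lower, and the median log2 difference was -0.14 over the 13 serpins and -0.05 over all genes. At 1.5-fold 4 serpins were higher and 4 lower, against 25.1% and 18.5% of all genes, and at 3-fold 2 were higher and 2 lower, against 8.02% and 8%. Serpinb1b, Serpinb2 and Serping1 were below the floor on the PDL2+ array and entered this comparison through the LPS array. These counts are thus a description and carry no weight as evidence. Each pair of comparisons shares an array, so the values above are given side by side and their likeness is no separate result.

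As a technical measure, the log2 differences of the 2 brightest probe sets of a gene differed with a robust SD of 0.41 over 4212 genes after LPS, 0.29 over 4243 genes between the untreated groups, and 0.44 over 4121 genes between PDL2+ and LPS-treated DCs. It says nothing of the spread between cultures or mice. Passing 1 such SD is no test, since the 2 probe sets of a gene can disagree by more. Those of Serpinb9 did so between PDL2+ and LPS-treated DCs, at 1.36 and 3.02. Several members above the floor on both arrays compared differed by more than this technical spread, and not all are listed here. Against untreated PDL2- DCs they included Serpinb9 (5.04), Serpinb1a (4.51), Serpinb8 (-1.96) and Serpinb6a (-0.91) in PDL2+ DCs. Serpinb2 (5.84) did so after LPS. In PDL2+ against LPS-treated DCs they included Serpinb6b (4.29), Serpinb1a (3.23), Serpinb8 (-1.54), Serpinb9 (1.36) and Serpinb9b (1.31). Serpinb2, Serpinb6a, Serpinb6b and Serpinb9b had 1 probe set each, so no second reading of them was at hand. The untreated PDL2- values of Serpinb6b and Serpinb9b lay below the floor, so their differences from that array are not set against the spread.

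The cathepsins, lysosomal proteases of which several are inhibited by clade B serpins, were lower or under 2-fold different in PDL2+ DCs than in untreated PDL2- DCs. Of 14 measured, 0 were higher and 6 lower against untreated PDL2- DCs (median log2 difference -0.72), 1 was higher and 6 lower against LPS-treated DCs (median -0.55), and 0 were higher and 2 lower after LPS (median -0.35). Over all genes, 10.1% were higher and 13% lower in the first comparison, 15.6% and 12.6% in the second, and 9.17% and 13.8% after LPS. The share of cathepsins lower after LPS was near that of all genes. The same shares apply beside the counts of the other protease and inhibitor lists. Ctsg is counted here and among the granule proteases. Its product, cathepsin G, is the only cathepsin named here as a target of a serpin above the floor. Ctsk had log2 signals of 6.43 in PDL2+, 10.30 in LPS-treated and 11.07 in untreated PDL2- DCs, a 24.99-fold difference between the untreated groups. Ctsl was 9.97-fold, Ctsd 9.40-fold and Ctsa 6.08-fold lower in PDL2+ than in untreated PDL2- DCs. Ctss, the main protease of invariant chain processing in DCs, had 14.06, 14.34 and 14.34, among the brightest signals, at which an array may understate a difference. The macrophage marker sums given above were lower in PDL2+ DCs as well, and the part of such cells in the cathepsin values was not tested.

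**Figure D4:**
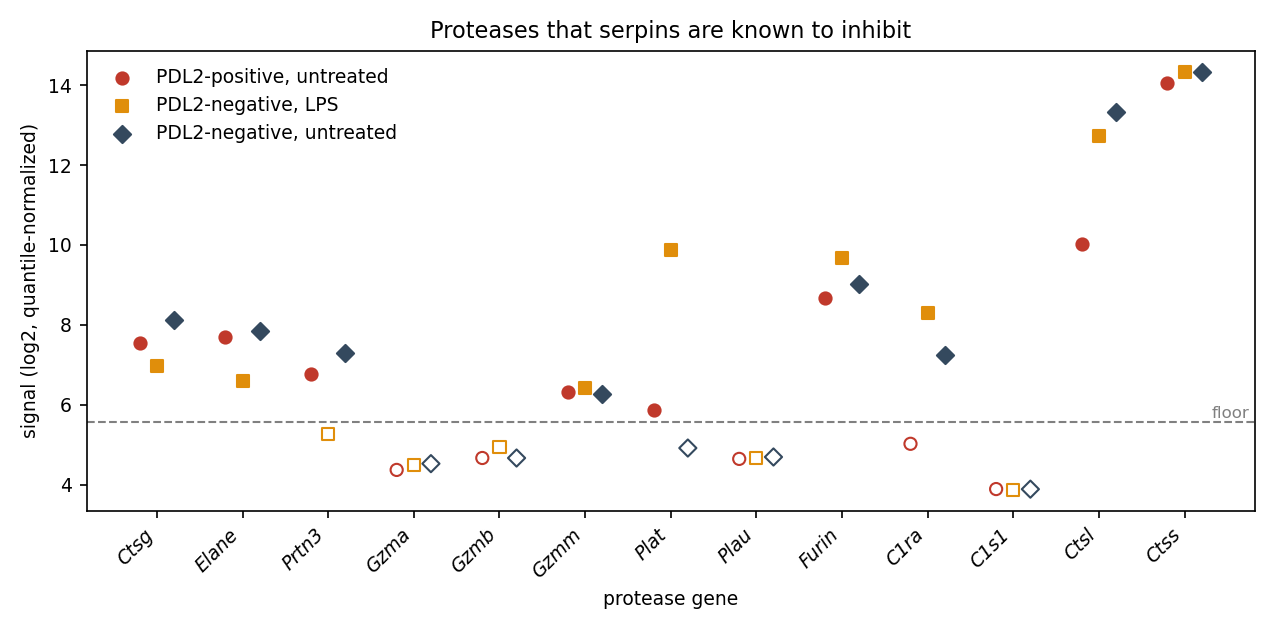
Signals (log2, quantile-normalized) of 13 genes for proteases that serpins inhibit, with 1 point per array and hollow points at or below the floor (dashed line). Gzma, Gzmb, Plau and C1s1 lie below the floor on all 3 arrays, Plat is highest after LPS, and Ctsl is lowest in PDL2+ DCs.

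Protease inhibitors outside the serpin family also differed. Of 22 measured cystatins, stefins and genes with WAP, Kunitz or related domains, 11 were above the floor in the LPS comparison, with 3 higher and 1 lower (median log2 difference 0.21). In PDL2+ DCs 2 were higher and 5 lower of 13 against untreated PDL2- DCs (median -0.20), and 4 were higher and 5 lower of 13 against LPS-treated DCs (median -0.09). Spint2, a membrane-bound Kunitz inhibitor, was 8.62-fold higher in PDL2+ than in untreated PDL2- DCs, with signals of 11.82 in PDL2+, 9.45 in LPS-treated and 8.71 in untreated PDL2- DCs. Slpi, a secreted inhibitor of neutrophil elastase, had 7.90, 13.06 and 10.27, and Cst7, which encodes the cystatin family member cystatin F, had 5.26, 9.81 and 6.67. Slpi was 6.90-fold and Cst7 8.81-fold higher after LPS, while in PDL2+ DCs Wfdc17 was 9.15-fold, Slpi 5.17-fold and Wfdc18 2.46-fold lower than in untreated PDL2- DCs.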

How the data were processed

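Total RNA from sorted DCs was hybridized with a biotin label to 3 Affymetrix arrays, 1 per group, per the labels' protocols. The authors deposited 1 value per probe set and array, which its range shows to be log2; how it was corrected and summarised was not given in the sources used here. Since the quartiles of the arrays differed by up to 0.22, above the limit of 0.1 set for leaving them as they were, quantile normalization was applied to the deposited log2 values of 38533 probe sets; 13 controls were left out. The annotation table named 1 gene for 33974 probe sets and several for 449, and left 4110 unnamed; probe sets with several or none were used for no gene. Symbols were updated through the Entrez number in a RefSeq gene table. Values below the floor were raised to it for differences, so a fold against a floored array is a lower bound, and a gene entered a comparison if above the floor on at least 1 of its 2 arrays. Higher and lower mean at least 2-fold. Python 3.11.15, pandas 2.3.3, numpy 2.4.6, Biopython 1.88 and matplotlib 3.10.9 were used, and the steps were tested on simulated arrays. Promoters were aligned with scores of 2 for a match, -1 for a mismatch, -5 for opening and -1 for extending a gap.

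Every serpin above the floor was named with its values; from each list at most the 4 genes with the largest differences past 2-fold in a comparison were named, plus known targets of the serpins described. The members and lists were chosen with earlier results of these data known. Alternatives covered the normalization, the floor, the probe set and the size rule. With 1 array per group, no replicate could be left out.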

Additional observations from a re-analysis of the deposited data

How the results depend on the processing

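No paired analysis was possible because each group had 1 array and the result comes from no test. Without further normalization the median log2 difference of all genes after LPS was -0.09, against 0.02 here. Under that setting and under median centring the numbers of higher and lower serpins were the same as here in all 3 comparisons, and none of the 37 serpin values under each moved by more than the probe set spread. More moved under the other settings. With the floor at the 75th percentile 9 moved and 10 did not, and with no floor 5 moved and 32 did not. With averaged probe sets 8 moved and 29 did not, and with the second brightest probe set 8 moved and 1 did not. No serpin value called by the 2-fold rule changed sign under the alternatives run, which is a weak check. A floor cannot reverse a sign, and the probe set settings cannot alter Serpinb2, Serpinb6b, Serpinb9b or Serping1, with 1 probe set each. Calls could still be lost. After LPS, Serpinb1a was 0.50 with averaged probe sets, and neither it nor Serping1 entered with the floor at the 75th percentile.

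With the floor at the 75th percentile, 2 serpins were higher after LPS, 0 were lower in PDL2+ against untreated PDL2- DCs and 1 was lower against LPS-treated DCs, with medians of 0.019, 2.09 and 1.31; fewer members enter at that floor, and Serpinb8 lost both of its calls as lower (-0.45 and -0.034). With no floor the LPS median was 1.27 and 2 serpins were lower in PDL2+ against untreated PDL2- DCs, the second being Serpinb2 (-1.05), as with averaged probe sets (2, the second being Serpinf1 at -1.38) and at 1.5-fold (2, the second being Serpinb6a). At 1.5-fold 1 serpin was lower after LPS, and at 3-fold 2 were higher in PDL2+ against LPS-treated DCs. With the second brightest probe set, which few serpins have, 1 was higher and 2 were lower after LPS (median -1.42), 2 and 2 in PDL2+ against untreated PDL2- DCs (median 0.40), and 2 and 0 against LPS-treated DCs (median 2.62).

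Among the protease and inhibitor lists, with no further normalization and equally with median centring, 0 complement proteases and 0 trypsin-like proteases were higher and 1 cathepsin was lower after LPS, and in PDL2+ against LPS-treated DCs 1 coagulation gene was higher, and 2 trypsin-like proteases were higher and 1 lower. With no floor 2 trypsin-like proteases were higher after LPS, and the caspase median in PDL2+ against LPS-treated DCs was -0.63. With the floor at the 75th percentile, after LPS 1 caspase, 1 coagulation gene, 1 cathepsin and 0 granzymes and granule proteases were lower (median of the last -0.040), and 0 complement proteases were higher. At that floor, in PDL2+ against untreated PDL2- DCs, medians were -3.35 for coagulation, 1.08 for trypsin-like proteases and -1.43 for cathepsins, and 1 other inhibitor was higher and 3 were lower. Against LPS-treated DCs, the medians were -0.83 for caspases, -0.50 for complement (0 lower), -4.00 for coagulation, 0.66 for trypsin-like proteases and -1.57 for cathepsins, and 0 granule proteases were higher. Signals near the floor limit Serpinb1b, Serping1 and the untreated values of Serpinb6b and Serpinb9b.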

Other observations

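Coagulation genes include enzymes that secreted serpins restrain. Of 11 compared in PDL2+ DCs, 0 were higher and 4 lower against untreated PDL2- DCs, with a median log2 difference of -0.79, and against LPS-treated DCs 0 of 10 were higher and 5 lower, with a median of -1.07. F7, the gene of clotting factor VII, had log2 signals of 6.43 in PDL2+, 10.79 in LPS-treated and 11.59 in untreated PDL2- DCs, and F10, of factor X, had 6.87, 12.83 and 11.41. After LPS 2 were higher and 2 lower, with a median of -0.31; Procr, the endothelial protein C receptor gene, was 22.5-fold higher. F2, which encodes thrombin, was below the floor on all 3 arrays. F13a1 is also in the monocyte list, whose 6 markers were all lower in PDL2+ than in untreated PDL2- DCs, and the part of monocytes in these values was not tested.

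Of 8 caspases measured, 2 were higher and 2 lower in LPS-treated DCs (median log2 difference 0.31), led by Casp4, an inflammatory caspase that senses intracellular LPS (13.5-fold higher), and Casp9, which starts mitochondrial apoptosis (4.03-fold lower). In PDL2+ against untreated PDL2- DCs 0 of 7 differed by 2-fold, with a median of -0.57, and against LPS-treated DCs 1 was higher and 3 were lower, with a median of -0.11. Among 19 membrane-anchored and trypsin-like serine proteases, 3 of 9 that entered were higher and 0 lower in PDL2+ against untreated PDL2- DCs, with a median of 0.02. They were St14, which encodes matriptase, a target of Kunitz inhibitors (4.36-fold), Htra1 (3.84-fold) and Htra2 (2.41-fold). In that list 1 was higher and 0 were lower of 11 after LPS (median 0.34), and 1 was higher and 2 lower of 11 against LPS-treated DCs (median -0.16). Granzyme and granule protease genes numbered 6 above the floor: after LPS 3 were lower and 0 higher (median -0.50), 0 differed by 2-fold in PDL2+ against untreated PDL2- DCs (median -0.14), and 2 were higher and 0 lower against LPS-treated DCs (median 0.33).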
